A study of Mus musculus with 4 samples.

Results

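The genes described here are 7 mouse serpins of clade B, Serpinb1a, Serpinb1b, Serpinb1c, Serpinb6a, Serpinb6b, Serpinb8 and Serpinb9. They were picked by symbol from a table of 37305 gene rows in which each stood on 1 row, and they are 7 of the 28 clade B serpins found in that table. Their levels in MCK-TD and Con-TD muscle were known when they were picked. Their differences between the groups are therefore given as a description, with no test. The RNA came from tissue labelled GTN muscle of C57BL/6 mice under conventional housing. There were 2 genotype groups of 2 libraries, F and G of Con-TD, then A and B of MCK-TD, and pairs of values below follow that order. No age, sex or treatment is given, the labels expand neither TD, MCK nor GTN, and they name no altered gene, so the genotype could not be checked against a targeted transcript. Nothing in the labels ties a library to its own animal. The p-values given for other genes therefore reflect no more than the spread between libraries, possibly technical, and genotype cannot be told apart from a batch that went unrecorded.

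Serpins are protease inhibitors that present an exposed loop as bait. A protease that cuts this reactive centre loop is carried along as the loop folds into the body of the serpin, and it stays trapped in a covalent complex. Members of clade B lack a classical secretion signal and act mostly in the cytosol and nucleus, where they are known for shielding cells from proteases of their own granules and lysosomes. In mice, some single human genes of this clade correspond to small groups of copies that lie together on chromosome 13. Serpinb1a corresponds to human SERPINB1, an inhibitor of the neutrophil proteases elastase, cathepsin G and proteinase 3, and Serpinb1b and Serpinb1c are its mouse copies. Serpinb6a corresponds to human SERPINB6, which blocks cathepsin G and thrombin, and mouse Serpinb6b blocks granzyme A. Human SERPINB8 blocks furin, and Serpinb9 blocks granzyme B.

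The stretch of coding sequence that carries the bait is shown for the 7 genes, because the loop largely sets which protease is caught. Each run has 60 bases, 5′ to 3′ on the coding strand, from the GRCm38 genome, starting at the conserved glycine codon of the loop's hinge. Capitals mark the hinge, 24 bases that let the loop fold in, and lower case marks the 36 bases after it, in which the loop is most variable.
Serpinb1a: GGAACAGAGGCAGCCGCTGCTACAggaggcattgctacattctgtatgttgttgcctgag
Serpinb1b: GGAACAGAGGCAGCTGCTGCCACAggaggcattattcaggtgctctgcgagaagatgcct
Serpinb1c: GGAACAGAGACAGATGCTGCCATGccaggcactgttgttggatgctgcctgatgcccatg
Serpinb6a: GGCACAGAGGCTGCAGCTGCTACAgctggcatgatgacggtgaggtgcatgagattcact
Serpinb6b: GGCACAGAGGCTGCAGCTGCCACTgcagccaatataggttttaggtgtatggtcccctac
Serpinb8: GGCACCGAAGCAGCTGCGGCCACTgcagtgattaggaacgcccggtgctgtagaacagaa
Serpinb9: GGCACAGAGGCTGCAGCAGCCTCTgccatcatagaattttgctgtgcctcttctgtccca

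All 7 runs lie in the last exon of their gene. The Serpinb1a run is at chr13:32842911-32842970 and the Serpinb1c run at chr13:32881923-32881982, both on the minus strand, and the Serpinb1b run is at chr13:33093773-33093832 on the plus strand. The Serpinb6a run is at chr13:33918134-33918193 on the minus strand and the Serpinb6b run at chr13:32978207-32978266 on the plus strand. On the plus strand also lie the runs of Serpinb9, at chr13:33015699-33015758, and of Serpinb8, at chr1:107607173-107607232. In the hinge, 12 of 24 bases were identical in all 7 genes, against 1 of 36 in the later bases. Serpinb1b differed from Serpinb1a at 2 hinge bases and at 23 later bases, although the full coding sequences of both were 90.7% identical. Serpinb1c differed from Serpinb1a at 6 hinge and 19 later bases, with 89.8% identity over the coding sequence. Serpinb6a and Serpinb6b were 86.4% identical over their coding sequences, and every other pair among the 7 genes, apart from 87.8% between Serpinb1b and Serpinb1c, lay between 59.4% and 69.0%.

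Transcript levels are FPKM, fragment counts divided by transcript length and by the size of the library, so they can be compared between genes. Serpinb1a was at 1.51 and 1.95 FPKM in Con-TD, against 119.7 and 134 in MCK-TD. Both MCK-TD libraries lay far above both Con-TD libraries, and within each group the libraries were close. The means were 1.73 ± 0.305 FPKM in Con-TD and 127 ± 10.3 in MCK-TD (SD, n = 2 libraries per group), a 73.4-fold ratio. In bulk tissue, a different number of cells of a type and a different amount of RNA per cell cannot be told apart. Among the rows tested, the gene stood above 16.4% and 20.7% of rows in the Con-TD libraries and above 94.5% and 94.9% in the MCK-TD libraries. Its difference ranked 9 among 12474 rows.

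Its copies were much less abundant. Serpinb1c was at 0.757 and 0.742 FPKM in Con-TD, against 8.46 and 9.42 in MCK-TD, an 11.9-fold ratio of means. Serpinb1b was at 0.135 and 0.0546 FPKM in Con-TD, against 1.78 and 2.18 in MCK-TD. The groups were apart for both copies, but the Con-TD level of Serpinb1b was so low that its 20.9-fold ratio ran from 13.3 to 39.8 between single libraries. Between single libraries the ratio of Serpinb1c ran from 11.2 to 12.7, and that of Serpinb1a from 61.5 to 88.6. A pseudogene of this group, Serpinb1-ps1, was listed at 0 in both Con-TD libraries and at 0.398 and 0.345 FPKM in MCK-TD.

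Serpinb6a was the most abundant of the 7 genes in every library, with 82.1 and 68.8 FPKM in Con-TD, against 268 and 437 in MCK-TD. The MCK-TD libraries were higher than both Con-TD libraries, and B was 1.63 times A. The means were 75.4 ± 9.42 and 352 ± 119.5 FPKM, a 4.67-fold ratio that ran from 3.26 to 6.35 between single libraries. Serpinb6b was at 1.03 and 1.22 FPKM in Con-TD, against 13.2 and 13.6 in MCK-TD. Its groups were apart, its MCK-TD libraries nearly equal, and its ratio of means was 11.9-fold, a larger ratio at a much lower level than that of Serpinb6a.

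Serpinb8 was at 0.846 and 0.826 FPKM in Con-TD, against 4.13 and 2.16 in MCK-TD. Both MCK-TD libraries were higher, with a 3.76-fold ratio of means, but they were uneven, with B at 0.523 of A. Serpinb9 was at 1.27 and 2.04 FPKM in Con-TD, against 2.39 and 2.96 in MCK-TD. Its groups stood apart by a small margin, since MCK-TD A was 1.17 times Con-TD G. The ratio of its means was 1.62, and 31.6% of all rows tested had a larger difference.

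**Figure D1:**
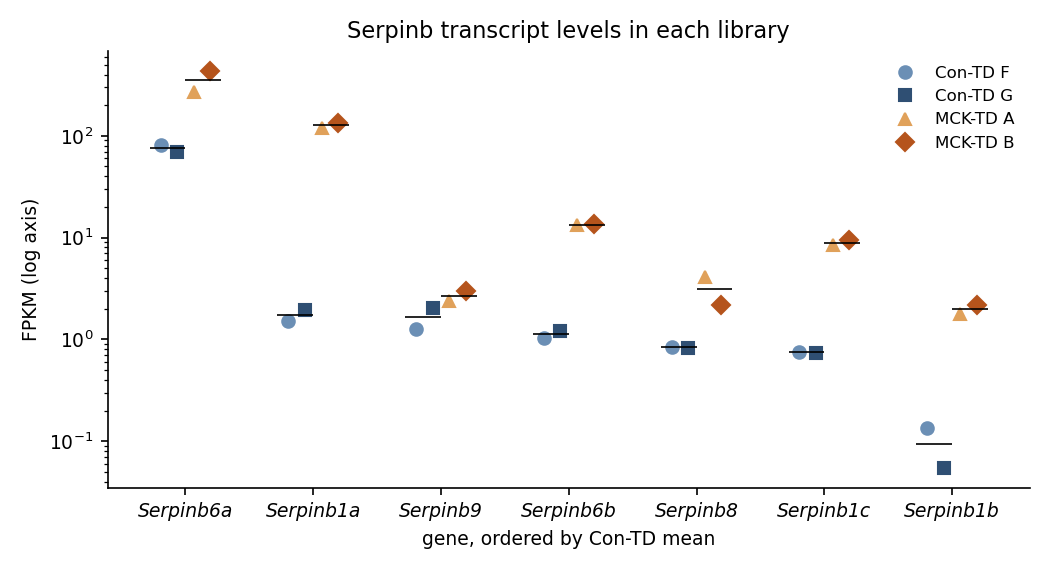
FPKM (log axis) of the 7 Serpinb genes in the 4 libraries, ordered by Con-TD mean. Symbols are single libraries and short lines are group means. Serpinb1a lies at 1.51 and 1.95 FPKM in Con-TD, against 119.7 and 134 in MCK-TD, whereas the groups of Serpinb9 nearly touch.

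The order of the levels differed between the groups. In Con-TD, Serpinb6a stood first in both libraries. Serpinb1a and Serpinb9 followed and changed places between the libraries, so they do not differ beyond their spread there. Serpinb6b, Serpinb8, Serpinb1c and Serpinb1b came next, in that order in both libraries. In MCK-TD the order was Serpinb6a, Serpinb1a, Serpinb6b and Serpinb1c in both libraries. The ranges of Serpinb8 and Serpinb9, and of Serpinb8 and Serpinb1b, overlapped below them.

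Both MCK-TD libraries were above both Con-TD libraries for 7 of the 7 genes. The same held for 50.7% of all rows tested, and nothing is read from the count because the genes were chosen on this comparison. On the scale log2(FPKM + 1), which understates the change of low genes, the MCK-TD minus Con-TD differences were 5.55 for Serpinb1a, 2.76 for Serpinb6b and 2.50 for Serpinb1c. They were 2.17 for Serpinb6a, 1.44 for Serpinb1b, 1.13 for Serpinb8 and 0.48 for Serpinb9. Their median was 2.17, and it lay between 1.69 and 2.58 for single pairs of an MCK-TD and a Con-TD library. The median over all 12474 rows was 0.22. All 7 genes had a mean FPKM of at least 1 and so were among the rows tested. Serpinb1b, Serpinb1c and Serpinb8 were under 1 FPKM in both Con-TD libraries and passed only through their MCK-TD values.

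**Figure D2:**
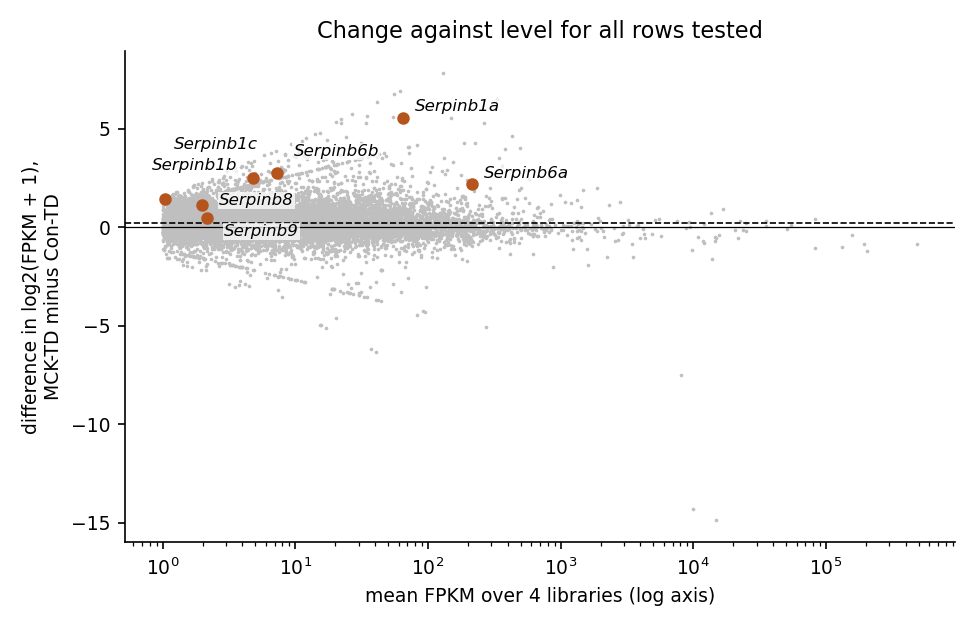
Difference in log2(FPKM + 1), MCK-TD minus Con-TD, against mean FPKM over the 4 libraries (log axis) for the 12474 rows tested (grey), with the 7 Serpinb genes in orange. The dashed line is the median of all rows, 0.22, and Serpinb1a, at 5.55, stands near the upper edge of the cloud.

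Summed over the 28 clade B serpins, the level was 89.3 and 77.1 FPKM in Con-TD, and 421 and 607 in MCK-TD. Serpinb6a supplied 91.9% and 89.2% of this sum in the Con-TD libraries, and 63.6% and 71.9% in the MCK-TD libraries. The share of Serpinb1a was 1.70% and 2.52% in Con-TD, and 28.4% and 22.1% in MCK-TD. Serpinb6a thus made up most of the sum in every library, with a smaller share in MCK-TD. Put as a ratio, Serpinb1a was at 0.0185 and 0.0283 of Serpinb6a in Con-TD, against 0.447 and 0.307 in MCK-TD. The 21 clade B serpins outside the 7 made up 0.872% to 1.99% of the sum.

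**Figure D3:**
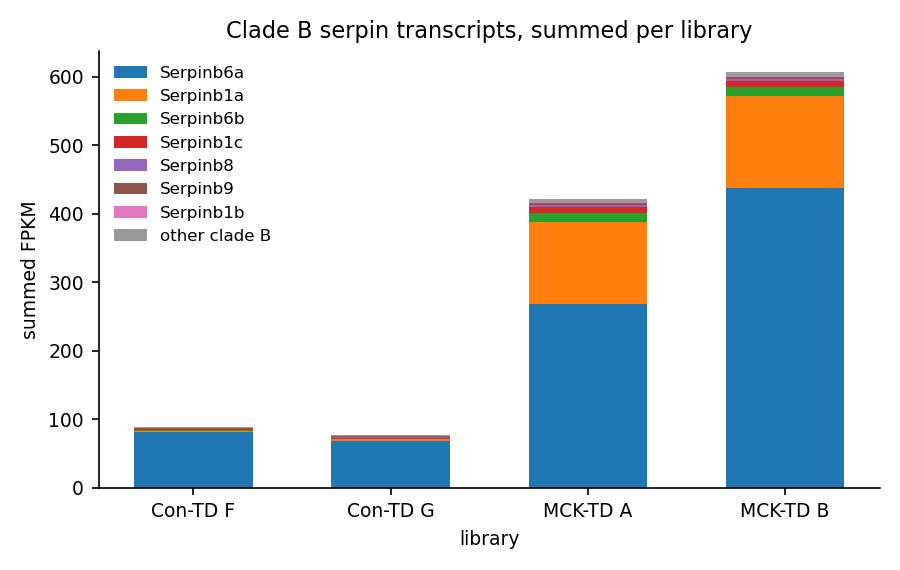
Summed FPKM of the 28 clade B serpins in each library, stacked by gene with the 21 others in grey. The Con-TD bars, 89.3 and 77.1 FPKM, are almost wholly Serpinb6a, and the MCK-TD bars, 421 and 607 FPKM, hold a second large segment of Serpinb1a.

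The genes whose pattern over the 4 libraries was most like that of Serpinb1a were Myl4, a myosin light chain of embryonic muscle and atrium, Uchl1, a ubiquitin hydrolase, and Ankrd1, an ankyrin-repeat protein induced by mechanical stress. Likeness was the Euclidean distance between log2(FPKM + 1) profiles after subtraction of the Con-TD mean, over 4 libraries and 9561 genes, and it was 0.40, 0.86 and 0.97. Myl4 was at 10.8 and 14.1 FPKM in Con-TD, against 478 and 556 in MCK-TD. Like Serpinb1a, it was nearly even within each group. Uchl1, at 59.7 and 155.6 FPKM in MCK-TD, and Ankrd1, at 172 and 411, were uneven there. For Serpinb6a the nearest were Nup62cl (distance 0.24), Txn1, the cytosolic thioredoxin (0.25), and Rhpn2 (0.26). Nup62cl was listed at 0.0232 and 0 FPKM in Con-TD, against 2.14 and 4.66 in MCK-TD, and Rhpn2 at 0.934 and 0.958, against 6.41 and 9.18. Both genes were under 1 FPKM in Con-TD and passed the filter only through their MCK-TD values. At such low levels the scale understates their change, so their likeness to Serpinb6a does not hold for the ratio of FPKM. Txn1 was at 40.2 and 39.95 FPKM in Con-TD, against 155.8 and 212 in MCK-TD, with B above A as for Serpinb6a.

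Because copies share sequence, fragments of an abundant copy can be counted for a rare one. The sequencing was single-end with 50 bases, per the series design text, so shared stretches of 50 bases were counted in GENCODE transcripts. Serpinb1b shared 44 of its 1647 stretches (2.67%) with Serpinb1a, and this share of the mean MCK-TD level of Serpinb1a comes to 3.39 FPKM, more than the 1.98 FPKM measured for Serpinb1b. The level of Serpinb1b is therefore uncertain. For Serpinb1c the same product is 3.69 FPKM, against 8.94 measured. For Serpinb6b and the fragments of Serpinb6a it is 1.32 FPKM, against 13.4 measured. How the deposited values split such fragments is not given in the sources used here, and their part in these levels was not tested. Serpinb8 shared 0.165% and Serpinb9 0.378% of their stretches with any other gene. Serpinb6a shared 25.1%, mainly with transcripts annotated over the same locus, those of Nqo2 (715 of 5728 stretches) and of 1110046J04Rik (488). In MCK-TD A and B, Nqo2 was at 9.89 and 8.73 FPKM and 1110046J04Rik at 0.373 and 1.01, against 268 and 437 for Serpinb6a, and whether strand was used in counting is not given.

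Promoter windows from RefSeq, the 250 bases before a start site in GRCm38.p6, matched 6 of the 7 genes (8 windows). No window was found for Serpinb1a, so the likeness and motif results below do not cover it. The pair with the highest alignment score was Serpinb1c and Serpinb1b, both higher in MCK-TD, and its aligned part is shown in full. The Serpinb1c stretch (chr13:32898233-32898390, minus strand) ends 93 bases before its start site, and the Serpinb1b stretch (chr13:33083946-33084102, plus strand) ends directly before its own. Capitals mark the 115 identical bases of 152 aligned (75.7%).
Serpinb1c: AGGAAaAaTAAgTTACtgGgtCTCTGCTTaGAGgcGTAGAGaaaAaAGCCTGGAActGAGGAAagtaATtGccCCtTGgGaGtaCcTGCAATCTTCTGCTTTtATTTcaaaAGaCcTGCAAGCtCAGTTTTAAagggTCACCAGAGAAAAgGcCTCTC
Serpinb1b: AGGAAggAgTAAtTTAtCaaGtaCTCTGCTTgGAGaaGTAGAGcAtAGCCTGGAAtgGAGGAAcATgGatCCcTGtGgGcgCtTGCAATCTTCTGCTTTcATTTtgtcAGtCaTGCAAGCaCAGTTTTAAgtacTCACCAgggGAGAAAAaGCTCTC

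The next best pair, the other Serpinb1c window and that of Serpinb9, aligned over 113 bases with 74.3% identity. Of 11 short motifs searched on both strands, the core of the antioxidant response element, TGACNNNGC, stood in 1 of the 8 windows, that of a Serpinb6a start, and in 10.2% of all 32851 windows. The TEAD core CATTCC stood in 2 windows, of Serpinb1b and Serpinb6a, and in 12.6% of all windows. The Serpinb1b match lies within the stretch shown above, on the opposite strand, where Serpinb1c differs. The TATA box TATAAA stood in 1 window, of Serpinb1c (12.4% of all), the STAT core TTCNNNGAA in 1, of Serpinb6a (7.02%), and the NF-kB core GGGNNNTCC in 1, of Serpinb1c (15.2%). The E-box CANNTG stood in 6 of the 8 windows and in 66.2% of all. The cores searched for heat shock factor (GAANNTTC), Atf4 (TGATGNAA), FoxO (GTAAACA), MEF2 (TAAAAATA) and p53 (GACATGTC) stood in 0 of the 8, and in 6.69%, 3.45%, 3.17%, 2.45% and 0.186% of all windows. A match is a run of letters and not a bound site.

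Of the 21 clade B serpins outside the 7, only Serpinb6c, a further copy of Serpinb6a, reached a mean FPKM of 1. It was at 1.06 and 1.42 FPKM in Con-TD, against 3.40 and 4.77 in MCK-TD, and it was called higher (log2 difference 1.17, SE 0.20, limma adjusted p = 0.0214). Over all rows, limma's moderated test called 30.8% at an adjusted p (Benjamini-Hochberg) under 0.05, 24.3% higher and 6.45% lower in MCK-TD. Serpinb6c shared 21 of 1278 stretches of 50 bases with Serpinb6a. That share of the mean MCK-TD level of Serpinb6a comes to 5.79 FPKM, above the 4.08 FPKM measured, so its level is uncertain as well. Its call was lost whichever library was left out. Of the other 20, 6 were listed at 0 in all 4 libraries (Serpinb3a, Serpinb3c, Serpinb3d, Serpinb9e, Serpinb11 and Serpinb13). Of the other copies that lie between the members on chromosome 13, Serpinb9b was at 0.00681 and 0.0146 FPKM in Con-TD, against 0.0357 and 0.203 in MCK-TD.

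Serpins of the other clades, which are secreted or reside in the endoplasmic reticulum, changed in both directions. Of 33, 6 were tested, and 2 of them rose (33.3%, against 24.3% of all rows). Of the 6, 1 fell (16.7%, against 6.45%) and 3 were not called, and the median log2 difference of the 6 was -0.05. Serpina3n, an extracellular inhibitor of granzyme B and of neutrophil proteases, was at 0.548 and 0.287 FPKM in Con-TD, against 11.8 and 30.2 in MCK-TD (log2 difference 3.82, SE 0.46, limma adjusted p = 0.0124). It was among the rows tested only through its MCK-TD values. Serpine2, protease nexin, fell from 39.2 and 46.4 FPKM in Con-TD to 29.4 and 25.5 in MCK-TD (-0.62, limma adjusted p = 0.0383). Serpinf1, the pigment epithelium-derived factor, was at 56.3 ± 7.40 and 41.4 ± 1.38 FPKM (limma adjusted p = 0.0734), and Serping1 and Serpinh1 were not called either. With 1 library left out, 0 of these 6 were called, except Serpina3n without MCK-TD A.

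The neutrophil and lymphocyte proteases that these inhibitors are best known to block were near 0 in all 4 libraries. Cathepsin G (Ctsg) was listed at 0 throughout. Elastase (Elane) was listed at 0.116 and 0.0608 FPKM in Con-TD F and MCK-TD A and at 0 in the other two libraries, and proteinase 3 (Prtn3) at 0.201 and 0.175 in Con-TD G and MCK-TD B and at 0 elsewhere. Granzyme B (Gzmb) was listed at 0 in both Con-TD libraries and at 0.0358 and 0.0362 FPKM in MCK-TD, and granzyme A (Gzma) stayed at or below 0.134 FPKM. Furin, the target of human SERPINB8, was present at 7.97 and 7.03 FPKM in Con-TD, against 9.31 and 8.91 in MCK-TD (log2 difference 0.25, limma adjusted p = 0.158).

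Of 16 proteases that clade B serpins of any kind are known to block, 7 were tested, 2 rose and 0 fell by limma (3 and 0 at an unadjusted p under 0.05), with a median log2 difference of 0.65. The share that rose, 28.6%, was near the 24.3% of all rows called higher. The 2 that rose were lysosomal cathepsins. Cathepsin S (Ctss) was at 1.55 and 2.51 FPKM in Con-TD, against 33.4 and 27.6 in MCK-TD (log2 difference 3.39, SE 0.21, limma adjusted p = 0.00690), and cathepsin L (Ctsl) at 98.4 and 82.2 and at 258 and 284 (1.58, SE 0.14, limma adjusted p = 0.00835). In the wider list of 22 cathepsins and calpains, which shares Ctsl, Ctsk and Ctss with the first, 8 of 18 tested rose (44.4%, against 24.3% of all rows) and 1 fell, with a median of 0.57. Cathepsin D (Ctsd), the main aspartic protease of lysosomes, was the most abundant, at 280 ± 10.5 FPKM in Con-TD and 796 ± 110.0 in MCK-TD (2.85-fold, limma adjusted p = 0.00874). Cathepsin B (Ctsb) rose by 1.27 and Ctso fell by 0.62 on the log2 scale (limma adjusted p = 0.00749 and 0.0406). Ctsc and Capns1 lost their calls under other scalings of the libraries. With 1 library left out, 1 gene of either list was called without Con-TD F or without Con-TD G, Ctss both times, and 0 without MCK-TD A or B.

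Other inhibitors of cytosolic proteases were compared as a reference for the family. Of 15, 8 were tested, 4 rose and 0 fell by limma (4 and 0 at an unadjusted p under 0.05), and their median log2 difference was 0.62. Of all rows tested, 24.3% were called higher. They were Birc5 (0.284 and 0.386 FPKM in Con-TD, 3.51 and 2.78 in MCK-TD), also known as survivin and typical of dividing cells, Cstb, the cysteine protease inhibitor stefin B (2.40-fold), Cast, the calpain inhibitor calpastatin (2.05-fold), and Pebp1 (1.66-fold). Birc5 had the largest log2 difference of these, 1.63 (SE 0.17, limma adjusted p = 0.0106), but it was under 1 FPKM in both Con-TD libraries and was tested only through its MCK-TD values. The limma adjusted p-values were 0.0160 for Cstb, 0.0123 for Cast and 0.0130 for Pebp1. Every one of the 4 was called under 3 other scalings of the libraries, and none with any 1 library left out.

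**Figure D4:**
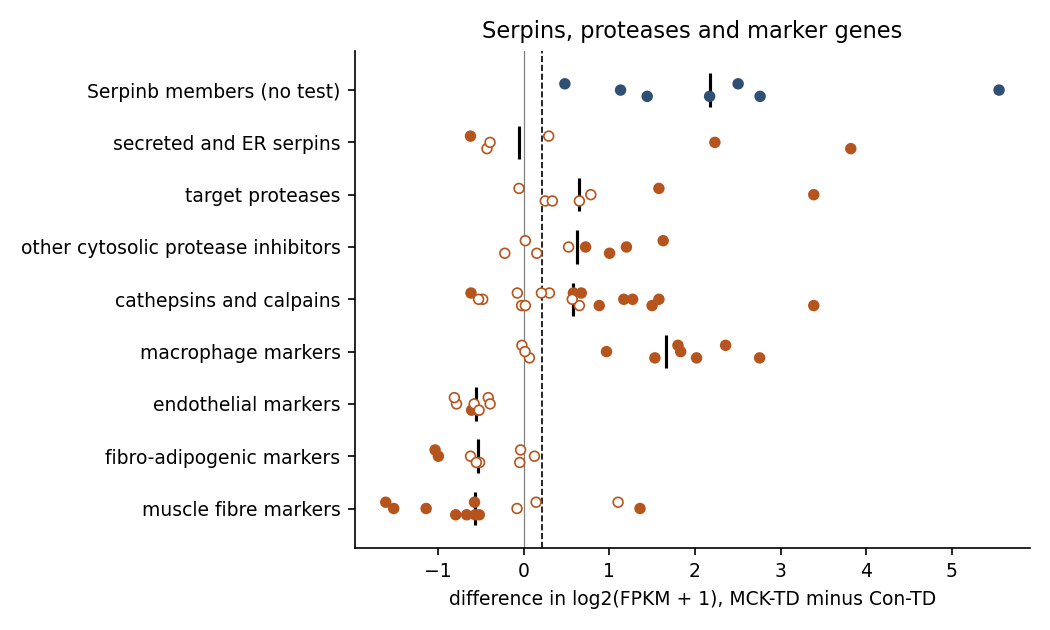
Difference in log2(FPKM + 1), MCK-TD minus Con-TD, for single genes of each list. Filled orange points passed limma's test and open points did not, blue points are the 7 Serpinb genes with no test, bars are list medians and the dashed line is the median of all rows (0.22). The Serpinb median of 2.17 is that of genes chosen on these values.

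Genes next to the 7 in the genome were looked at through a RefSeq gene table of GRCm38. Of 40 non-serpin genes, 10 to each side of the chromosome 13 group and of Serpinb8, 20 had a row and 8 were tested. Of these 8, 4 rose and 0 fell by limma (4 and 0 at an unadjusted p under 0.05), with a median log2 difference of 0.49. Of all rows tested, 24.3% were called higher. All 4 lie beside the chromosome 13 group. Tubb2a, a beta tubulin, was at 2.72 and 3.53 FPKM in Con-TD, against 12.2 and 15.3 in MCK-TD (log2 difference 1.84, limma adjusted p = 0.00886), Tubb2b rose by 1.65, the proteasome assembly chaperone Psmg4 by 1.05 and Nqo2 by 0.62 (limma adjusted p = 0.0109, 0.00886 and 0.0247). The 2 tubulins are near-identical copies and may share fragments. Mylk4, a myosin light chain kinase family member on the other side of the group, was at 132.0 and 74.8 FPKM in Con-TD, against 58.1 and 62.6 in MCK-TD, and it was not called (limma adjusted p = 0.140). Nqo2 lost its call after median of ratios scaling and after quantile normalization, and 0 of the 8 were called with any 1 library left out.

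Markers of the cells known for these inhibitors were read in the same libraries. Of 12 neutrophil markers, 3 were tested and 0 were called by limma (0 at an unadjusted p under 0.05). Their summed level was 20.8 and 7.69 FPKM in Con-TD and 12.9 in both MCK-TD libraries. The defining neutrophil genes Ly6g, listed at 0.311 and 0 FPKM in Con-TD, and Mpo, at 0.186 and 0.1001, were listed at 0 in both MCK-TD libraries. The granule gene Camp was at 0.112 and 0.119 FPKM in Con-TD, against 0.351 and 0.354 in MCK-TD, and S100a8 was at 7.27 and 3.56, against 4.39 and 4.199. The 3 tested markers were S100a8, S100a9 and Retnlg, with log2 differences of -0.21, 0.04 and 0.36, and the groups of each overlapped. Of 14 macrophage markers, 10 were tested. Of these 10, 7 rose, against 24.3% of all rows, and 3 were not called, with a median log2 difference of 1.67. The summed level of the 14 was 40.9 and 58.6 FPKM in Con-TD and 214.9 and 184.5 in MCK-TD. Among them Cd68 was at 1.71 and 2.53 FPKM in Con-TD, against 22.4 and 17.6 in MCK-TD, Lyz2 at 10.4 and 15.1 and at 78.7 and 59.3, and C1qb, a complement subunit, at 5.31 and 9.51 and at 33.6 and 30.5 (limma adjusted p = 0.00741, 0.00984 and 0.0141). The 3 not called, Cd163, Mrc1 and Itgam, had log2 differences of -0.02, 0.07 and 0.02, and the groups of each overlapped. Aif1 and Csf1r lost their calls under each of 3 other scalings. Without a filter, 3 of the list were called. With 1 library left out, 3 of the list were called without Con-TD G and 0 without any other. The part of macrophages in the levels of the 7 genes was not tested.

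Lymphocyte markers were low, with summed levels for 12 T and NK cell genes of 1.36 and 0.573 FPKM in Con-TD and 1.97 and 2.97 in MCK-TD. For 5 B cell genes they were 0.118 and 0.516 FPKM in Con-TD and 1.93 and 0.281 in MCK-TD. Of the T and NK cell genes, 7 of 12 were higher in both MCK-TD libraries than in both Con-TD libraries. The same held for 50.7% of all rows tested. None of either list reached the filter, a mean FPKM of 1, so that share does not cover them. Of 8 mast cell markers, 2 were tested and 0 called by limma (2 lower at an unadjusted p under 0.05), and the sum was 5.57 and 7.15 FPKM in Con-TD and 1.38 and 3.16 in MCK-TD. Of 8 keratinocyte markers only Trp63 was tested, and it rose (3.08 and 1.97 FPKM in Con-TD, 12.6 and 11.7 in MCK-TD, limma adjusted p = 0.00972), while Krt5 was listed at 0 in all 4 libraries. As a check of the tissue label, all of the 12 muscle fibre markers were above 0 in every library, with sums of 171800 and 160800 FPKM in Con-TD and 104200 and 133100 in MCK-TD. Of these 12, 8 fell (66.7%, against 6.45% of all rows) and 1, Des, rose (8.33%, against 24.3%). But with quantile normalization 5 fell, without a filter 0 fell, and with any 1 library left out 0 were called. Endothelial markers (1 of 8 lower, median -0.55) and fibro-adipogenic markers (2 of 8 lower, median -0.53) lay below the median of all rows. The share of all rows called lower was 6.45%. Under 3 other scalings 3 endothelial and 3 to 4 fibro-adipogenic markers were called lower, and 0 of either list without a filter or with any 1 library left out. The part of these cell types in the Serpinb levels was not tested.

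The 4 libraries were close in relative depth, between 0.934 and 1 of Con-TD F, and their absolute depth is unknown. Pearson's r of log2 values across genes, which are not independent replicates, was 0.953 within Con-TD, 0.946 within MCK-TD and 0.881 to 0.904 between the groups.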

How the data were processed

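Per the labels' protocols, Trizol RNA was cleared of DNA with DNase, and BGI enriched mRNA and sequenced it. The authors deposited 1 FPKM value per gene and library. Per the submitters' processing notes, STAR and Cufflinks were used with mm9, a mouse genome build (no versions named). The annotation, and how strand and multiply mapping fragments were handled, is not given in the sources used here.

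The 7 members and all gene lists were chosen with earlier results of these data known. Values were used as log2(FPKM + 1) without rescaling. The 12474 of 37305 rows whose FPKM averaged 1 or more were fitted with limma 3.58.1 under R 4.3.3 on group alone (2 residual degrees of freedom), with a two-sided moderated test with an intensity trend, Benjamini-Hochberg adjusted over all rows, and called at an adjusted p under 0.05. Differences are MCK-TD minus Con-TD, and fold values are ratios of mean FPKM. An exact 0 can be a failed estimate, so genes are said to be listed at 0. Relative depth is the modal ratio of low values (FPKM under 0.2) between libraries.

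The genes named are taken from up to 4 tested ones of each list, called genes first by absolute difference and then by p, plus Serpinb genes above 1 FPKM. Not all that this rule takes are named. No endothelial, fibro-adipogenic or mast cell gene is, and of the muscle fibre markers only Des. Genes named outside this rule were chosen after their values were seen. They include Ctso, Ctsc, Capns1, Serpinb9b, Serpinb1-ps1, 1110046J04Rik, Camp, Ly6g, Mpo, Cd163, Mrc1, Itgam and the target proteases near 0. Coding sequences and shared stretches come from GENCODE transcripts of GRCm38, not the build of the deposited values. Promoters and neighbouring genes come from RefSeq tables. Among the secreted serpins, 1 gene that this rule takes is not reported here.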

Additional observations from a re-analysis of the deposited data

How the results depend on the processing

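With 2 other pseudocounts and 3 other scalings, 21 of 35 log2 differences of the 7 Serpinb genes moved by more than the spread between libraries. All 35 stayed above 0, which only the scalings could have changed. The filters and the trend do not enter these differences. Their sign with another pseudocount or with 1 library left out was fixed by the choice of genes, whose groups do not overlap. Their median was 3.41 with a pseudocount of 0.1 and 1.28 with a pseudocount of 5, against 2.17. Serpinb6a depended on MCK-TD B, with 1.82 without it and 2.52 without MCK-TD A. Of all rows, 3837 were called as reported and 2043 without a filter (1668 higher, 375 lower). Leaving out 1 library gave 71 (without MCK-TD B) to 189 (without Con-TD G) calls, with 129 without Con-TD F and 142 without MCK-TD A. A single library was then assumed to vary like the other group. Leave-one-out counts of calls were 0 to 0 for the other clade B serpins, the other cytosolic inhibitors and the neighbouring genes, and 0 to 1 for the secreted serpins, the target proteases and the cathepsins and calpains. At an unadjusted p under 0.05, 1 of 1, 4 or 5 of 8, and 4 of 8 genes of these lists, in that order, were still higher. The secreted serpins had 0 calls with no filter (5 higher and 3 lower at an unadjusted p under 0.05), and the other clade B serpins had 0 with a filter of 5, which leaves none of them. Higher calls were 79.0% of calls as deposited, 54.7% after median of ratios scaling, 49.0% after quantile normalization and 66.2% when scaled without mitochondrial and small RNA rows and the 20 most abundant others. The median of all rows was then 0.01, -0.04 and 0.10, against 0.22. No paired analysis was possible because the library letters are not shared between the groups. Absolute depth is unknown, so no counting error can be given for Serpinb1b, the lowest of the 7 in Con-TD.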
